A study of Mus musculus with 6 samples.

Results

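The genes described here are those of the proteasome and immunoproteasome, whose mRNA was sequenced from sorted hepatic CD4+ T cells of mice. The members were taken by symbol, as all Psma to Psmg genes followed by a digit in the count table, without pseudogenes. This gave 51 of 28430 gene symbols, of which 50 had enough counts to be tested. Of the 51, 5 are immunoproteasome genes (Psmb8, Psmb9, Psmb10, Psme1 and Psme2) and 46 are other members. Of those 46, Psmc3ip and Psme3ip1 share the name only. Psmc3ip encodes a factor of meiotic recombination, and Psme3ip1 encodes a protein that binds the activator Psme3. Psme2b is a near-identical copy of Psme2.

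The proteasome is the protease that degrades ubiquitin-tagged proteins in every nucleated cell. Its core is a barrel of outer alpha rings and inner beta rings, and the beta rings carry the proteolytic sites. A regulatory particle caps the barrel, recognises ubiquitin, unfolds the substrate with a ring of ATPases and feeds it into the core. In lymphocytes, and in other cells exposed to interferon-γ, the catalytic beta subunits Psmb5, Psmb6 and Psmb7 are exchanged for Psmb8, Psmb9 and Psmb10 in newly assembled cores. This immunoproteasome is known for the peptides it makes for presentation on MHC class I, together with the interferon-induced activator PA28 (Psme1 and Psme2) and the peptide transporter Tap1 and Tap2.

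The 2 groups held 3 libraries each. The group named dKO came from Nr4a1 fl/fl Nr4a2 fl/fl Cd4-Cre mice, labelled as lacking Nr4a1 and Nr4a2, which encode orphan nuclear receptors switched on by T cell receptor signals. The other group was labelled WT. All mice had received a choline-deficient, low-methionine, high-fat diet that induces metabolic dysfunction-associated steatohepatitis (MASH), so no library came from healthy liver. The Cd4 promoter drives Cre from an early thymic stage on, and CD8 T cells of these mice carry the deletion too. The sources used here give neither the full genotype of the WT controls nor the age and sex of the animals sequenced.

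The libraries held 5747744 to 11078184 counted reads, of which 0.430% to 0.486% fell on the 51 members. Levels are given as normalised CPM (counts scaled to a common library total), with library sizes adjusted by TMM factors. A gene is called, or passes the test, at an edgeR adjusted p under 0.05. The targeted genes were not lower in the libraries labelled dKO. Nr4a2 was at 160.1, 286 and 235 CPM across WT 1 to 3 and at 478, 541 and 392 CPM across dKO 1 to 3, a log2 fold change of 1.05 ± 0.21 (SE, adjusted p = 0.0308), and that of Nr4a1 was 0.39 (adjusted p of 0.650), or 0.08 (adjusted p = 0.879) without WT 1. The Nr4a2 call was lost without WT 3, dKO 1 or dKO 2, where the log2 fold change was 1.08, 1.04 and 0.94 (adjusted p = 0.0789, 0.128 and 0.0959). Whether the counted reads come from the exons that Cre removes cannot be read from a table of counts per gene, so the groups are called by their labels throughout. The summed level of 6 T cell markers (Cd3d, Cd3e, Cd3g, Cd4, Lck and Cd28) was 2870 to 3175 CPM in the WT libraries and 3023 to 3137 CPM in the dKO libraries. Of these only Cd4 sets CD4 T cells apart from CD8 T cells, and it was at 350 to 409 CPM in WT and 390 to 432 CPM in dKO. The CD8 genes Cd8a and Cd8b1 together reached 199 to 237 CPM in WT and 296 to 338 CPM in dKO, and both were called higher. Dendritic cell markers (4 genes) summed to 17.4 to 39.2 CPM in WT and 7.74 to 10.7 CPM in dKO, with 2 of 4 called lower. Macrophage markers (9 genes) summed to 11.6 to 15.4 CPM in WT and 9.07 to 10.4 CPM in dKO, with 1 of 9 called lower and Adgre1, C1qa and C1qb at 0 in every library. B cell markers (4 genes) summed to 2.11 to 4.68 CPM in WT and 4.82 to 8.18 CPM in dKO, with none of them called. Hepatocyte markers (5 genes) summed to at most 4.42 CPM in any library, and the endothelial markers in the table (2 of 4) to 37.4 to 63.1 CPM in WT and 53.2 to 56.9 CPM in dKO, with none called. Nearly all of the endothelial sum was Pecam1, at 37.4 to 63.0 CPM in WT. The other endothelial marker, Stab2, was at 0.138 CPM in WT 1 and at 0 in every other library, and was not tested. The part of these cells in the results below was not tested.

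Library WT 1 stood apart from WT 2 and WT 3 in interferon-γ itself, a gene picked here after its values were seen. Ifng was at 142, 439.8 and 501 CPM across WT 1 to 3 and at 110.2, 147 and 185 CPM across dKO 1 to 3. Its target Irf1, a transcription factor that induces immunoproteasome genes, was at 180.0, 326 and 322 CPM (WT) against 237, 316 and 267 CPM (dKO), again lowest in WT 1. The results on immunoproteasome genes are therefore also given without WT 1.

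The start regions of 6 members are shown, for the immunoproteasome genes that hold an interferon motif or share their start region and for the genes set beside them. Each is 250 bases before to 50 bases after the start of the gene, from RefSeq, in the mouse build GRCm38.p6. Psmb8 lies at chr17:34197945-34198244, plus strand, and its capitals mark a GAS motif (TTCNNNGAA, the interferon-γ activated site). Psme1 lies at chr14:55578244-55578543, plus strand, and its capitals mark an ISRE motif (GAAANNGAAA, read on the other strand), the site of interferon regulatory factors. Psmb9 lies at chr17:34187281-34187580, minus strand, and its capitals mark the 225 bases between its own start (chromosome 17, base 34187330) and that of Tap1 (base 34187556), which is read in the opposite direction. Psmb5 (chr14:54617946-54618245, minus strand), Psmb6 (chr11:70525107-70525406, plus strand) and Psme4 (chr11:30771525-30771824, plus strand) carry in capitals an antioxidant response element (TGACNNNGC, in Psme4 read on the other strand), the motif of Nfe2l1, the transcription factor known for raising proteasome genes when proteasome activity falls.
Psmb8: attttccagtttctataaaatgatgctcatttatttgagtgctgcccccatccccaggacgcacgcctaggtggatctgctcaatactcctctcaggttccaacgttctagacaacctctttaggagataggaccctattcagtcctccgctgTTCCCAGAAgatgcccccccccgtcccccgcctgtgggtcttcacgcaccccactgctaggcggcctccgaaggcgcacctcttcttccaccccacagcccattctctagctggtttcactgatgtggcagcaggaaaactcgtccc
Psme1: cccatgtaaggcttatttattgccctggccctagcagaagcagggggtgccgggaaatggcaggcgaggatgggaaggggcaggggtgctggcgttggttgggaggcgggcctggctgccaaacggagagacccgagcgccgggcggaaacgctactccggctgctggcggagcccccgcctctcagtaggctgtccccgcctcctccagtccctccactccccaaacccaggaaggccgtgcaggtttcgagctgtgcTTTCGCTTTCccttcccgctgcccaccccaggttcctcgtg
Psmb9: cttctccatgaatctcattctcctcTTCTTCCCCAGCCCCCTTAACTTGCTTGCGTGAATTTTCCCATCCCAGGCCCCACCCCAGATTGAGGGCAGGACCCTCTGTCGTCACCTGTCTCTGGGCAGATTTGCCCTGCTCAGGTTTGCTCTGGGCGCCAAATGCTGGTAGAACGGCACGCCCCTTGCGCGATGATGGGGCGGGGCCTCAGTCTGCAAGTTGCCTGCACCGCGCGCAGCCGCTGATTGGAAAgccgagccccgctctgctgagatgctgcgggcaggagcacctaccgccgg
Psmb5: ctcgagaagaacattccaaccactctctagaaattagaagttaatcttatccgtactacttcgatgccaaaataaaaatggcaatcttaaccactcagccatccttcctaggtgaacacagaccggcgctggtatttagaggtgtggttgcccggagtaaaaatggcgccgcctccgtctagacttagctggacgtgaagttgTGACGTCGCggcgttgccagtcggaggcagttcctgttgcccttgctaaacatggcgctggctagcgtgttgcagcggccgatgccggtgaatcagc
Psmb6: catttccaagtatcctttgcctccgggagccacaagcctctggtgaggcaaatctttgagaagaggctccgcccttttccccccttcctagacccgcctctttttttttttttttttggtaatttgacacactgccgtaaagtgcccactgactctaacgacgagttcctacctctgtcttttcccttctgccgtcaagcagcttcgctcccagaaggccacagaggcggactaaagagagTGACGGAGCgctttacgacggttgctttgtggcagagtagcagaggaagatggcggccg
Psme4: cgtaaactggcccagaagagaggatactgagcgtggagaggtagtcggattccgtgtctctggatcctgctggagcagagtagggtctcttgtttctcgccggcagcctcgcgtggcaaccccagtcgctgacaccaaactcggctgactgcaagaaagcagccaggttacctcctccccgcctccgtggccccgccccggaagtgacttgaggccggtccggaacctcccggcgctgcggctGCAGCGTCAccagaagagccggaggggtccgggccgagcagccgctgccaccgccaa

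A start region was found for 43 members, and each motif was searched on both strands. A GAS motif was in 3 of the 43 (Psmb8, Psmd2 and Psmg1), against 8.30% of 32851 mouse start regions. An ISRE motif was in 5 (Psme1, Psmb3, Psmd4, Psmd9 and Psmg4), against 3.44%. The antioxidant motif was in 6 (Psmb5, Psmb6, Psmc6, Psmd9, Psmd12 and Psme4), against 12.4%. The motif that Nr4a receptors bind as monomers (AAAGGTCA) was in 0 of the 43, against 1.51% of all start regions. A match is a run of letters, and binding was not measured here.

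The first question was whether the immunoproteasome genes differed between dKO and WT CD4+ T cells. None of the 5 passed the test, where 3.31% of all 15694 genes tested did, and none had an unadjusted p under 0.05. The 3 catalytic subunits had log2 fold changes from -0.19 to -0.03, and PA28 from 0.04 to 0.17. All 5 intervals (95%) lay within -0.43 to 0.40 on the log2 scale, so a change of 1.5-fold lay outside each of them. In bulk RNA, fewer cells of a type and less RNA per cell cannot be told apart.

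Psmb8 encodes the chymotrypsin-like subunit that takes the place of Psmb5. It was at 399, 470.5 and 431 CPM across WT 1 to 3 and at 365, 390.3 and 385 CPM across dKO 1 to 3. All dKO libraries lay below all WT libraries, with means of 380.4 ± 13.1 CPM (SD, n = 3) against 433 ± 36.0 CPM (SD, n = 3). The dKO level was 0.877-fold that of WT, with a 95% interval of 0.742 to 1.04, and the log2 fold change of -0.19 ± 0.11 (SE, adjusted p = 0.389) did not pass. Psmb9, which takes the place of Psmb6, was at 145, 172 and 152 CPM across WT 1 to 3 and at 126, 155 and 144 CPM across dKO 1 to 3. The groups overlapped, with dKO 1 lowest and WT 2 highest, and the log2 fold change was -0.14 ± 0.11 (SE, adjusted p = 0.541). Psmb10, which takes the place of Psmb7, was at 141, 149 and 145 CPM across WT 1 to 3 and at 134, 146 and 147 CPM across dKO 1 to 3. Its groups overlapped. The dKO level was 0.981-fold that of WT, with a 95% interval of 0.848 to 1.14 and a log2 fold change of -0.03 ± 0.10 (SE, adjusted p = 0.918).

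Without WT 1 the log2 fold changes were -0.25 (adjusted p = 0.215) for Psmb8, -0.20 (adjusted p = 0.382) for Psmb9 and -0.05 (adjusted p = 0.851) for Psmb10. None of the 3 passed the test in any alternative, with adjusted p from 0.215 to 0.671 for Psmb8, from 0.382 to 0.872 for Psmb9 and from 0.799 to 0.981 for Psmb10. Exon bases of Psmb9 (5.79%) overlap Tap1 and those of Psmb8 (14.7%) overlap Gm20496, in both cases on the opposite strand, so reads there cannot be assigned without strand, and the sources used here do not say whether counting used strand.

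Psme1 and Psme2 encode PA28 alpha and beta, which together form a ring that opens the core without ATP. Psme1 was at 263, 285 and 252 CPM across WT 1 to 3 and at 264, 292 and 267 CPM across dKO 1 to 3, with overlapping groups and a log2 fold change of 0.04 ± 0.11 (SE, adjusted p = 0.881). Psme2 was at 246, 232 and 234 CPM across WT 1 to 3 and at 249, 289 and 266 CPM across dKO 1 to 3. Every dKO library was above every WT library, although dKO 1 exceeded WT 1 by little, and the log2 fold change of 0.17 ± 0.10 (SE, adjusted p = 0.397) did not pass. Psme2b shares 69.3% of its 50-base stretches with Psme2, and reads from such stretches can be counted to either gene. It was at 122, 115 and 115 CPM across WT 1 to 3 and at 129.9, 129.8 and 139 CPM across dKO 1 to 3, with a log2 fold change of 0.18 (adjusted p of 0.338). With the counts of both summed, an alternative chosen after seeing the data, the log2 fold change was 0.18 (adjusted p = 0.400). Without WT 1 it was 0.02 (adjusted p = 0.943) for Psme1 and 0.19 (adjusted p = 0.373) for Psme2. Over all alternatives the adjusted p ran from 0.760 to 0.996 for Psme1 and from 0.358 to 0.708 for Psme2.

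**Figure D1:**
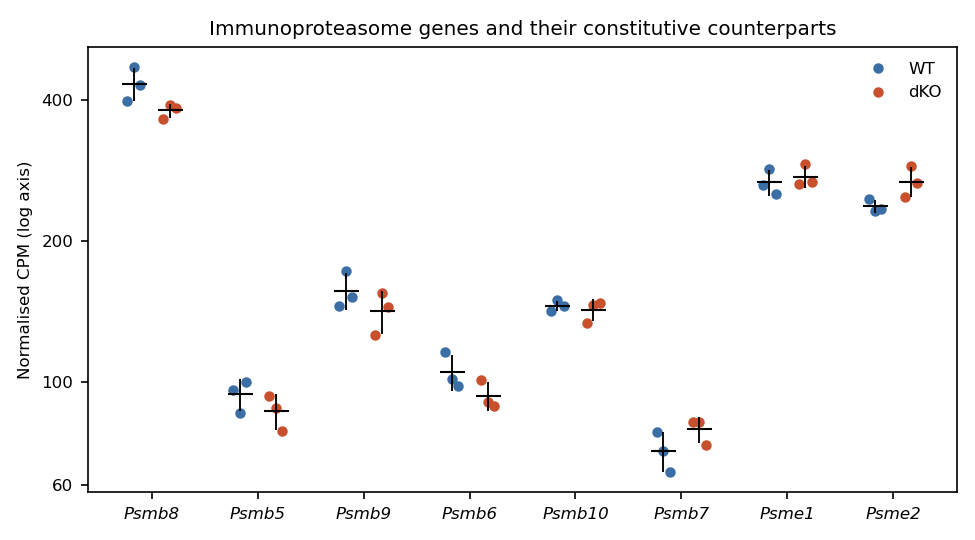
Normalised CPM (log axis) of the immunoproteasome genes and of Psmb5, Psmb6 and Psmb7, the subunits they replace. Points are libraries, horizontal lines group means and vertical lines 1 SD (n = 3 per group). The Psmb8 points of dKO, at 365 to 390 CPM, lie below those of WT, at 399 to 470 CPM, and the groups overlap for Psmb9, Psmb10 and Psme1.

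The exchange of catalytic subunits was examined as the ratio of raw counts within each library, which needs no scaling. The ratio of Psmb8 to Psmb5 was 4.15, 5.48 and 4.33 in WT 1 to WT 3 and 3.92, 4.45 and 4.92 in dKO 1 to dKO 3. That of Psmb9 to Psmb6 was 1.26, 1.70 and 1.55 in WT and 1.24, 1.72 and 1.63 in dKO. That of Psmb10 to Psmb7 was 1.82, 2.10 and 2.26 in WT and 1.64, 1.79 and 2.01 in dKO. The groups overlapped in each pair. The log2 differences (dKO minus WT) were -0.07, 0.02 and -0.19, with exact two-sided permutation p of 0.7, 0.9 and 0.2 (adjusted over the 3 pairs 0.9, 0.9 and 0.6). With 3 libraries per group the smallest p this test can give is 0.1. Without WT 1 the differences were -0.14, -0.10 and -0.27, so that of Psmb9 to Psmb6 changed sign, and that of Psmb8 to Psmb5 turned to 0.06 without WT 2 and 0.02 without dKO 1.

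**Figure D2:**
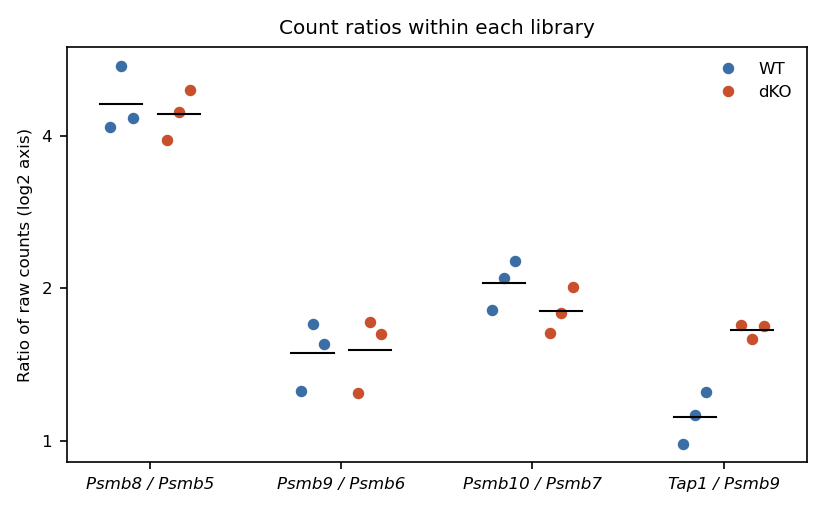
Ratio of raw counts within each library (log2 axis) for the 3 pairs of immuno to constitutive catalytic subunits and for Tap1 to Psmb9, which start 225 bases apart. Points are libraries and lines are means of the log2 ratios (n = 3 per group). The groups overlap in the 3 catalytic pairs, while Tap1 to Psmb9 runs from 0.991 to 1.25 in WT and from 1.59 to 1.69 in dKO.

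Levels of different genes were compared only per kilobase. This assumes that reads fall evenly along the length used, which the sources used here do not state. Per kilobase of coding sequence, Psmb8 was at 524 CPM in WT, Psme1 at 357, Psme2 at 331, Psmb9 at 238 and Psmb10 at 177. The constitutive counterparts were at 147 (Psmb6), 119 (Psmb5) and 85.4 CPM per kilobase (Psmb7), so each immuno subunit was above the subunit it replaces. In dKO the order of these 8 genes was the same except for Psme1 (367) and Psme2 (373), which changed places. Per kilobase of whole transcript, Psmb8 stayed above Psmb5 (266 and 104 CPM in WT), while Psmb9 fell below Psmb6 (116 and 131 CPM). The order of Psmb9 and Psmb6 therefore depends on the length used. Of the 50-base stretches of Psmb5, 57.1% also occur in other genes, mainly Gm3375, which has no row in the count table. Across the particle, the alpha subunits ran from 103 (Psma1) to 243 CPM per coding kilobase in WT (Psma3), the base ATPases from 36.2 (Psmc1) to 74.4 (Psmc6), and the core chaperones from 22.5 (Psmg1) to 43.8 (Psmg2).

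The constitutive catalytic subunits did not pass the test either. Psmb5, the chymotrypsin-like site, was at 96.1, 85.8 and 99.7 CPM (WT) against 93.2, 87.7 and 78.3 CPM (dKO), with a log2 fold change of -0.12 (adjusted p of 0.597). Psmb6, the caspase-like site, was at 116, 101 and 97.7 CPM (WT) against 101, 90.3 and 88.7 CPM (dKO), with -0.17 (adjusted p of 0.429). Psmb7, the trypsin-like site, was at 77.9, 71.0 and 64.0 CPM (WT) against 81.8, 81.8 and 73.3 CPM (dKO), with 0.15 (adjusted p of 0.480). All 3 overlapped between groups. Their summed level was 289, 258 and 261 CPM in the WT libraries and 276, 259.9 and 240.2 CPM in the dKO libraries.

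No structural subunit of the core passed the test. The 4 beta subunits without a proteolytic site (Psmb1, Psmb2, Psmb3 and Psmb4) all had log2 fold changes below 0, from -0.29 to -0.03, and none was called. Their sum was 676, 673 and 642 CPM in the WT libraries and 565, 630.4 and 548 CPM in the dKO libraries, or -12.4% in the dKO mean, and the groups did not overlap. Psmb1 was at 267, 252 and 238 CPM (WT) against 199, 227 and 194 CPM (dKO), each dKO library below each WT library, with a log2 fold change of -0.29 (adjusted p of 0.163). Psmb2 was at 64.6, 69.2 and 68.8 CPM (WT) against 49.3, 64.6 and 53.2 CPM (dKO), with dKO 2 just above WT 1, and a log2 fold change of -0.28 (adjusted p of 0.210). Of the 7 alpha subunits, which form the gate of the barrel, 4 had values below 0 and 3 above. Psma7 was at 130.0, 116 and 117 CPM (WT) against 93.6, 111 and 89.7 CPM (dKO), without overlap, and its log2 fold change was -0.30 (adjusted p of 0.157). For Psma5 it was -0.24 (adjusted p of 0.261). The alpha ring summed to 856, 843 and 828 CPM in the WT libraries and 817, 861 and 792 CPM in the dKO libraries, with overlapping groups.

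No subunit of the regulatory particle passed the test. The 6 ATPases of its base summed to 395, 392 and 385 CPM in the WT libraries and 395, 389 and 406 CPM in the dKO libraries. Psmc1, which encodes an ATPase with a tail that opens the core gate, was at 48.2, 45.4 and 49.9 CPM across WT 1 to 3 and at 60.4, 60.4 and 59.1 CPM across dKO 1 to 3. The dKO libraries were tightly grouped above WT, and the log2 fold change of 0.33 ± 0.10 (SE, adjusted p = 0.0913) did not pass. Psmc4 was at 67.2, 57.4 and 59.1 CPM (WT) against 43.2, 63.3 and 55.8 CPM (dKO), with -0.18 (adjusted p of 0.533). Among the 3 other base subunits, Psmd4, a ubiquitin receptor, gave a log2 fold change of 0.07 (adjusted p of 0.744) and Psmd1, a scaffold, one of 0.08 (adjusted p of 0.746). Psmd2 was at 80.6, 77.9 and 73.8 CPM (WT) against 79.5, 75.1 and 80.9 CPM (dKO). Psmd1, Psmd2 and Psmd4 summed to 217.98, 210.3 and 209.6 CPM in the WT libraries and 221, 218.18 and 223.2 CPM in the dKO libraries. Every dKO sum was above every WT sum, although dKO 2 and WT 1 were almost level.

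In the lid, which removes ubiquitin chains, 7 of 8 subunits had values below 0. None was called, and the log2 fold changes ran from -0.26 to 0.05. The sum was 570.3, 548 and 538 CPM in the WT libraries and 495, 538 and 515 CPM in the dKO libraries, and the groups did not overlap, although dKO 2 and WT 3 were almost level. Psmd6 was at 55.8, 51.7 and 51.3 CPM (WT) against 44.3, 48.1 and 40.6 CPM (dKO), without overlap, with a log2 fold change of -0.26 (adjusted p of 0.214). Psmd8 was at 109, 110.5 and 102 CPM (WT) against 79.5, 108 and 85.5 CPM (dKO), with -0.24 (adjusted p of 0.315). Psmd14, the lid's deubiquitinase, was at 91.9, 84.7 and 83.1 CPM (WT) against 88.1, 87.4 and 92.5 CPM (dKO).

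The member nearest the threshold on the higher side was Psme4, which encodes PA200, a nuclear activator known in mouse testis for the breakdown of acetylated histones. It was at 87.1, 65.7 and 76.2 CPM across WT 1 to 3 and at 116, 106 and 97.8 CPM across dKO 1 to 3. Each dKO library lay above each WT library, with means of 107 ± 9.15 CPM (SD, n = 3) against 76.3 ± 10.7 CPM (SD, n = 3). The dKO level was 1.40-fold that of WT, with a 95% interval of 1.16 to 1.67. The log2 fold change was 0.48 ± 0.12 (SE, adjusted p = 0.0504), which just missed the threshold of 0.05. In alternatives it ran from 0.38 to 0.58, and 8 of 16 called it, DESeq2 among them (adjusted p = 0.0345, with adjusted p from 0.00369 to 0.215 over the 16). Leaving out WT 1 gave 0.58 (adjusted p = 0.00953). Psme4 was not called on leaving out any other single library, with adjusted p up to 0.215. WT 1 held the highest WT level of Psme4, so leaving it out had to enlarge the difference. By contrast Psme3, the nuclear PA28 gamma, was at 86.7, 76.7 and 72.0 CPM (WT) against 72.3, 71.0 and 62.8 CPM (dKO), with a log2 fold change of -0.19 (adjusted p of 0.373). Psmf1, the inhibitor PI31, was at 36.3, 36.8 and 30.6 CPM (WT) against 26.1, 27.7 and 31.7 CPM (dKO), with -0.27 (adjusted p of 0.281).

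The member nearest the threshold on the lower side was Psmd5, a chaperone that binds the base ATPases before they join the particle. Psmd5 was at 37.7, 29.9 and 32.8 CPM across WT 1 to 3 and at 19.8, 22.9 and 25.8 CPM across dKO 1 to 3. The highest dKO library was below the lowest WT library, and the means were 22.8 ± 2.97 CPM (SD, n = 3) and 33.5 ± 3.94 CPM (SD, n = 3). The dKO level was 0.687-fold that of WT, with a 95% interval of 0.556 to 0.850, and the log2 fold change of -0.54 ± 0.14 (SE, adjusted p = 0.0563) did not pass. It passed with upper-quartile scaling (-0.57, adjusted p = 0.0468) and with no filter on low counts (-0.54, adjusted p = 0.00862), with adjusted p from 0.00862 to 0.228 over all alternatives. The other base chaperones were Psmd9, with -0.15 (adjusted p of 0.601), and Psmd10, at 18.5, 16.4 and 16.8 CPM (WT) against 19.5, 20.6 and 15.7 CPM (dKO).

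The 4 chaperones of core assembly (Psmg1 to Psmg4) summed to 86.4, 72.9 and 76.9 CPM in the WT libraries and 60.0, 69.0 and 67.8 CPM in the dKO libraries, a difference of -16.7% in the mean without overlap. The base chaperones also summed lower without overlap, at 79.0, 69.3 and 70.8 CPM (WT) against 62.0, 62.1 and 60.5 CPM (dKO). Groups did not overlap for 25.0% of all single genes, and no such share was computed for sums. Psmg1, which pairs with Psmg2 to assemble the alpha ring, was at 23.5, 17.9 and 17.2 CPM (WT) against 13.0, 16.0 and 15.6 CPM (dKO), with a log2 fold change of -0.38 ± 0.17 (SE, adjusted p = 0.242). Psmg3, which pairs with Psmg4, was at 12.4, 12.1 and 9.83 CPM (WT) against 6.79, 7.59 and 9.95 CPM (dKO), with -0.47 ± 0.21 (SE, adjusted p = 0.232), and dKO 3 lay just above WT 3. Psmg4 itself was at 12.4, 12.3 and 14.5 CPM (WT) against 14.3, 14.2 and 13.0 CPM (dKO). Neither Psmg1 nor Psmg3 passed the test.

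**Figure D3:**
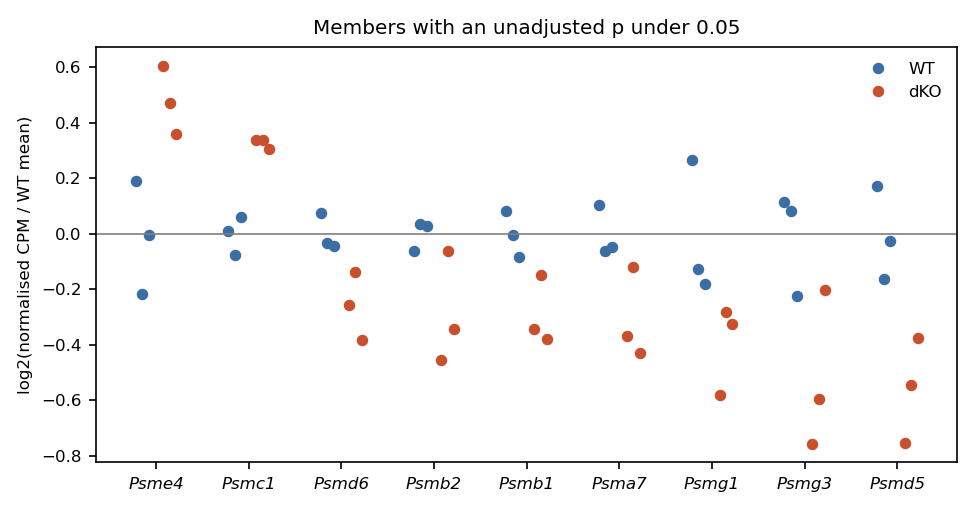
The 9 members with an unadjusted p under 0.05, as log2 of normalised CPM over the WT mean in each library (n = 3 per group). Psme4 and Psmc1 lie above 0 in every dKO library and the other 7 below, with group overlap for Psmb2 and Psmg3, and none of the 9 had an adjusted p under 0.05.

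Subunits known from other tissues were near the floor. Psmb11, the catalytic subunit of cortical thymic epithelium, was at 3.31, 5.45 and 5.24 CPM (WT) against 5.001, 4.89 and 4.31 CPM (dKO), and Psma8, an alpha subunit of testis, had 5 to 13 counts per library and was not tested. The log2 fold change of Psmb11 was -0.00 ± 0.25 (SE). Psmc3ip was at 5.66, 7.44 and 6.92 CPM (WT) against 6.79, 5.57 and 7.63 CPM (dKO) and Psme3ip1 at 50.8, 37.1 and 44.5 CPM (WT) against 33.8, 42.4 and 45.3 CPM (dKO), and neither was called.

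Across the 50 members tested, edgeR called 0 at an adjusted p under 0.05, where it called 3.31% of the 15694 genes tested (2.15% higher and 1.17% lower). At an unadjusted p under 0.05 there were 9 members (2 higher, 7 lower), or 18%, against 19.2% of all genes (10.5% higher, 8.71% lower). Groups did not overlap for 12 members (4 higher, 8 lower), or 24%, against 25.0% of all genes (13.2% higher, 11.7% lower). Both shares are near the background. DESeq2 called 1 member (Psme4), against 4.84% of genes (3.24% higher, 1.60% lower), limma-voom 0, against 3.05%, and limma on log2(CPM + 1) again Psme4 alone, against 3.80%. Log2 fold changes were below 0 for 32 of 50 members (64%), against 50.8% of all genes, and the median was -0.04 against -0.01. The summed level of all 51 members was 4757, 4721 and 4577 CPM in the WT libraries and 4419, 4687 and 4454 CPM in the dKO libraries, with overlapping groups.

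The members were measured more tightly than most genes. The interval (95%) lay within 1 log2 unit of 0, or 2-fold, for all 50, against 76.5% of all genes tested, and within 0.5 log2 units for 39 of 50 (78%), against 33.3%. Their median SE was 0.11, against 0.18 for all genes. In simulated libraries of the same size the test called 20% of genes changed by 1.5-fold and 74% of those changed by 2-fold. Every simulated gene was given the same variation between replicates, so these shares do not hold for the more tightly measured members. Among the members, Psme4 at 1.40-fold and Psmd5 at 0.687-fold were not called, so a change near 1.5-fold in a single member could go uncalled.

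**Figure D4:**
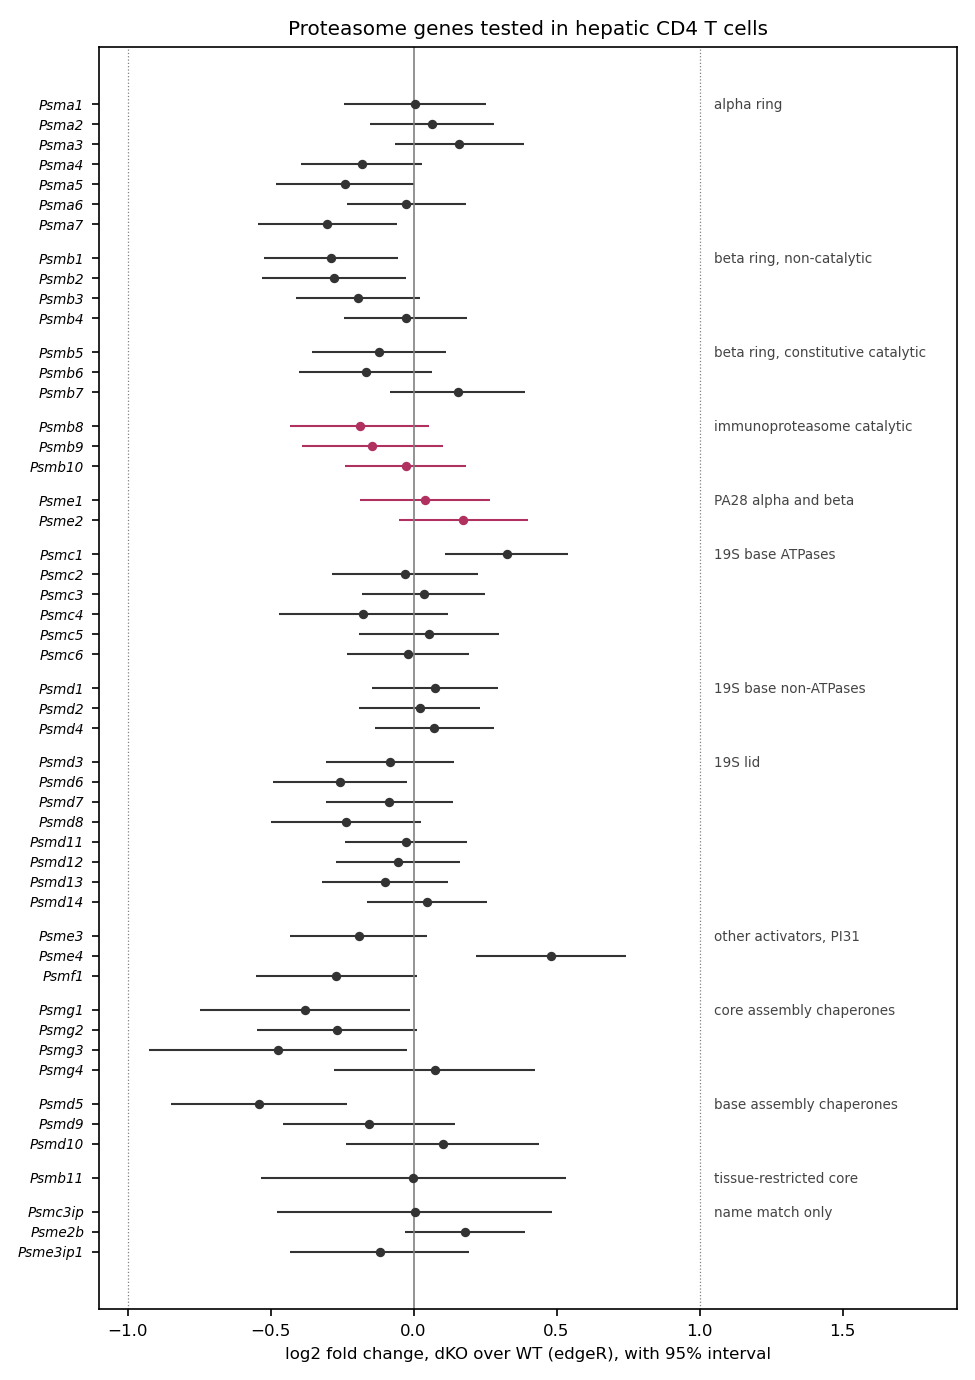
Log2 fold change (dKO over WT, edgeR) of the 50 members tested, ordered by subcomplex, with 95% intervals from 3 libraries per group. Immunoproteasome genes are in red, and dotted lines mark a 2-fold change. Psme2b, a copy of Psme2, is drawn with the genes labelled as name matches. All intervals stay within the dotted lines, and Psme4 (0.48) and Psmd5 (-0.54) lie farthest from 0.

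Of 46 other genes listed for the pathway, 45 were in the table and tested, and 3 were called, all higher in dKO, against 2.15% of all genes. The list was chosen with earlier results of these data known, so no conclusion is drawn from this count. Of the 3 called, Jak2 and Tapbp are described here. None was called of 4 further subunits and assembly factors, 7 ubiquitin enzymes bound to the proteasome, 5 regulators of proteasome genes, 8 shuttle and segregase genes and 6 genes for ubiquitin and its activating enzymes. Jak2, the kinase bound to the interferon-γ receptor, was at 230.4, 267 and 237 CPM across WT 1 to 3 and at 466, 378 and 311 CPM across dKO 1 to 3, with a log2 fold change of 0.65 ± 0.14 (SE, adjusted p = 0.0286). Tapbp (tapasin), which holds class I molecules at the peptide transporter, was at 178, 163 and 167 CPM across WT 1 to 3 and at 225, 236 and 228 CPM across dKO 1 to 3, with 0.44 ± 0.10 (SE, adjusted p = 0.0295). In both the groups were apart. The call was lost for Jak2 without WT 3, dKO 1 or dKO 2 (adjusted p = 0.0926, 0.143 and 0.103). For Tapbp it was lost without any library but WT 1 (adjusted p from 0.0675 to 0.128). Log2 fold changes stayed from 0.41 to 0.67 in all of these. CD8 marker genes were called higher in the same libraries, and their part in these calls was not tested.

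Other genes of the same lists were not called. Irf1 gave a log2 fold change of -0.01 ± 0.23 (SE), and Nlrc5, the activator of class I genes, was at 181, 208 and 206 CPM (WT) against 183, 185 and 200.4 CPM (dKO), with -0.06 (adjusted p of 0.806). For Ifng it was -1.29 ± 0.55 (SE, adjusted p = 0.308), with wide spread among the WT libraries. Without WT 1 Ifng was called lower, at -1.67 (adjusted p = 0.00196). WT 1 was singled out for its low Ifng, so leaving it out had to enlarge this difference, and no conclusion is drawn from that call. In the class I list, also chosen with earlier results of these data known, 5 of 8 genes lay higher in every dKO library than in every WT library. These were Tap1, Tap2, Tapbp, Erap1 and B2m, and 13.2% of all genes did so. For Erap1 and B2m the lowest dKO library was just above the highest WT library, at 95.5 against 94.7 CPM and 4754 against 4727 CPM. Their adjusted p were 0.526 and 0.423. H2-K1 and H2-D1 had overlapping groups.

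Tap1 starts 225 bases from Psmb9 and is read in the opposite direction, across the capitals of the printed Psmb9 sequence. It was at 144, 194 and 189 CPM across WT 1 to 3 and at 212, 247 and 243 CPM across dKO 1 to 3, with a log2 fold change of 0.41 ± 0.13 (SE, adjusted p = 0.0989), and without WT 1 of 0.28 (adjusted p = 0.173), with adjusted p from 0.0184 to 0.282 over all alternatives. It passed only with no filter on low counts. The ratio of Tap1 to Psmb9 counts, chosen after its values were seen and given with no test, was 0.991, 1.13 and 1.25 in WT 1 to WT 3 and 1.69, 1.59 and 1.69 in dKO 1 to dKO 3. The lowest dKO ratio was above the highest WT ratio, a mean log2 difference of 0.57. The same ratio with Tapbp over Psmb9 was 1.22, 0.945 and 1.10 in WT and 1.79, 1.52 and 1.58 in dKO.

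**Figure D5:**
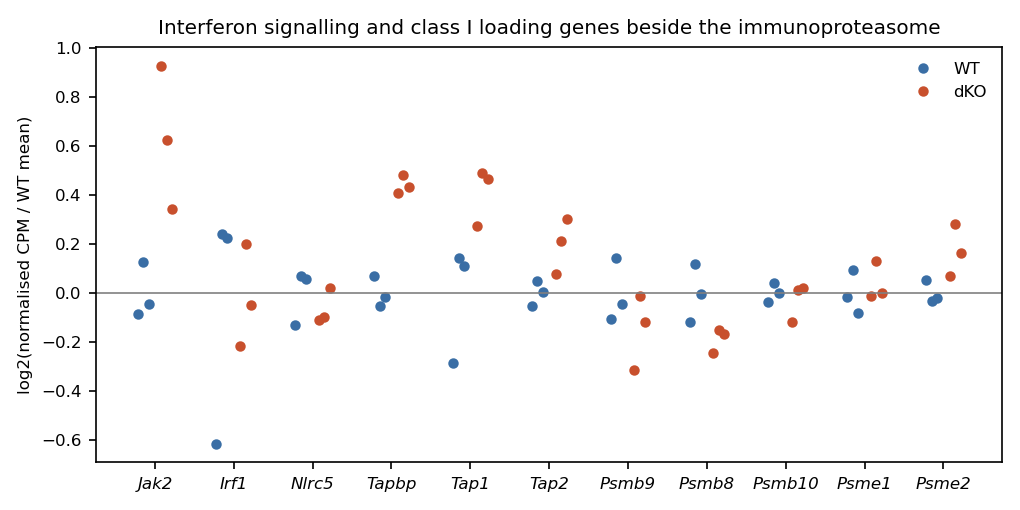
Log2 of normalised CPM over the WT mean in each library (n = 3 per group) for genes of interferon signalling and class I loading and for the 5 immunoproteasome genes. Jak2 and Tapbp, called higher, are above 0 in every dKO library, while the dKO points of Psmb8, Psmb9, Psmb10, Psme1 and Psme2 stay between -0.32 and 0.28.

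The remaining partner genes gave no call with all libraries. Among subunits and assembly factors named outside the Psm series, Sem1, a small lid subunit, gave a log2 fold change of 0.22 (adjusted p of 0.265), Pomp, the maturation factor of the core, -0.18 (adjusted p of 0.353), and Adrm1, a ubiquitin receptor, -0.02 (adjusted p of 0.940). Uchl5, a deubiquitinase held by Adrm1, was at 45.7, 44.0 and 45.5 CPM (WT) against 36.8, 30.5 and 32.7 CPM (dKO), lower in every dKO library, with -0.44 ± 0.11 (SE, adjusted p = 0.0549). Uba6, an enzyme that activates ubiquitin, was at 33.4, 33.1 and 29.6 CPM (WT) against 40.5, 44.9 and 44.3 CPM (dKO), with 0.44 ± 0.11 (SE, adjusted p = 0.0540). Vcp, the segregase that extracts ubiquitin-tagged proteins for the proteasome, was at 138, 131 and 150.4 CPM (WT) against 173, 182 and 173 CPM (dKO), with 0.33 (adjusted p of 0.0897). Uchl5 and Uba6 missed the threshold by little. Nfe2l1 was at 52.3, 49.96 and 50.7 CPM (WT) against 48.2, 48.4 and 57.0 CPM (dKO), with 0.01 (adjusted p of 0.971), and for the genes that activate its protein the log2 fold change was -0.13 (adjusted p of 0.611) (Ddi2, a protease) and -0.10 (adjusted p of 0.663) (Ngly1, which removes its sugars). Zfand5, which stimulates the proteasome, had 0.24 (adjusted p of 0.416), and without WT 1 0.07 (adjusted p = 0.799). The ubiquitin gene Ubb was at 1914, 4198 and 4370.3 CPM across WT 1 to 3 and at 1758, 2703 and 2735 CPM across dKO 1 to 3, with -0.54 ± 0.33 (SE, adjusted p = 0.436), and WT 1 was lower than WT 2 and WT 3. Without WT 1 it was called lower, at -0.84 (adjusted p = 0.0166), but leaving out the lowest WT library had to enlarge that difference.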

How the data were processed

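Total RNA of sorted hepatic CD4+ T cells from 3 WT and 3 dKO replicates, which the study's methods call independent and biological, was sequenced as single-end reads. The submitters' processing notes name cutadapt, Bowtie2 and the genomes mm10 and GRCm39. The sources used here give no versions, annotation, counting tool or strand setting. The authors deposited raw counts per gene symbol, the values tested here, without coordinates. They also deposited a normalised table called TPM. Its deposited values are CPM, since 100% of 170580 values gave whole reads (within 0.01 reads), and it was used only for this check and in the limma alternatives on log2(CPM + pseudocount). A mapping table was not used here.

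Of 28430 symbols, 27108 had a count and 15694 passed edgeR's filterByExpr (minimum count 10, minimum total 15). Groups were compared by edgeR 4.0.16 (quasi-likelihood F-test, robust, TMM factors 0.964 to 1.04, group as the sole term) under R 4.3.3, with Benjamini-Hochberg adjustment over all genes tested and a threshold of 0.05. All adjusted p are from this test unless another tool is named. The design had assumed that the normalised table held TPM. Ratios within libraries were compared by exact permutation tests. The biological coefficient of variation was 14.5%. Every pair of libraries differed by more than counting error (chi-square per degree of freedom 6.68 to 36.0). Depth limits genes under about 1 CPM. Intervals are 95%. Alternatives used DESeq2 1.42.0, limma 3.58.1, other scaling factors, filters and pseudocounts (1 and 0.25), a replicate block and leaving out each library. Lengths, exon overlaps and shared 50-base stretches came from GENCODE vM21 and start regions from RefSeq, both on GRCm38.

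On simulated counts, 2% of genes changed by 1.2-fold, 20% by 1.5-fold, 74% by 2-fold and 100% by 4-fold were called, among 15720 genes tested. Every simulated gene was given the same variation between replicates.

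The members and gene lists were chosen with earlier results of these data known. Named are the immunoproteasome genes, their constitutive counterparts, members that passed the test, the 2 members with the smallest p in each other subcomplex, members below the filter, partner genes that passed, the 2 with the smallest p in each partner list, Adrm1, Sem1, Pomp, Nfe2l1 and Tap1, and the targeted genes. Some genes that meet this rule are not reported here. Named outside this rule, after their values were seen, are Psmb3, Psmb4, Psmd2, Psmd10, Psmd12, Psmd14, Psmc6, Psme3, Psmg2, Psmg4, Psma1, Psma3, Ifng, Irf1, Nlrc5, Tap2, Erap1, B2m, H2-K1 and H2-D1.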

Additional observations from a re-analysis of the deposited data

How the results depend on the processing

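In 16 alternatives per gene (15 for Psmb11, which did not reach 50 counts in 3 libraries), 24 of 28 named members kept the sign of their log2 fold change, and none of the 104 recomputed group levels moved by more than the spread between libraries. The count of members called higher was 1 (Psme4) with library totals, no filter, a filter of at least 50 counts in 3 libraries, DESeq2 and limma on log2(CPM + 1) or log2(CPM + 0.25), and 0 to 1 on leaving out a library (1 without WT 1). Members called lower were 1 (Psmd5) with upper-quartile scaling and with no filter. At the study's thresholds (a fold over 1.5 or under 0.5 with p under 0.05 unadjusted) 0 members were called. Over all genes, 337 were called higher and 183 lower. With no filter these were 756 and 560, with DESeq2 509 were higher, at the study's thresholds 713 were higher, and on leaving out a library 90 to 447 were higher and 42 to 378 lower, the lowest without dKO 1 and the highest without WT 1. Partner genes called higher numbered 5 with no filter, 1 at the study's thresholds and 0 to 4 on leaving out a library (0 without WT 3, dKO 1 or dKO 2). Those called lower were 1 (Uchl5) with upper-quartile scaling, no filter and at least 50 counts, and 0 to 3 on leaving out a library, with 3 (Ifng and Ubb among them) without WT 1.

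Signs reversed for these named genes and ratios. Psmb11 was at 0.00085 with DESeq2, 0.012 with limma-voom, 0.021 and 0.028 with limma, 0.016 with the replicate block and -0.19 to 0.11 on leaving out a library. Psmc3ip was at -0.025 with upper-quartile scaling, -0.0077 with library totals, -0.0033 at 50 counts, -0.021 and -0.024 with limma and -0.12 to 0.11 on leaving out a library. Nfe2l1 was at -0.019, -0.0043, -0.0175 and -0.0179 with upper-quartile scaling, library totals and limma, and -0.084 to 0.053 on leaving out a library. On leaving out a library Psmb10 ran from -0.059 to 0.016, Psme1 from -0.0045 to 0.0898 and Adrm1 from -0.086 to 0.046. The log2 difference of the ratio of Psmb8 to Psmb5 ran from -0.14 to 0.058 and that of Psmb9 to Psmb6 from -0.10 to 0.16. The cause of these changes was not tested.

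Deviations of libraries with the same replicate number correlated at 0.05, 0.02 and -0.08, and those with different numbers at -0.09 to 0.09. Libraries with the same number thus showed no shared variation. Whether the samples were paired cannot be told from this, and the sample titles do not say. With the replicate block, 1 member was called higher (Psme4, adjusted p = 0.0444), and Tapbp lost its call (adjusted p = 0.0539).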
